A study of Mus musculus with 12 samples.

Results

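Sorted mouse skin cells were compared in 6 RNA sequencing libraries, 3 that carry the label dermal sheath (replicates 4, 5 and 1) and 3 that carry the label interfollicular dermis (replicates 1, 2 and 6). Their 11274 members are the genes that reached 1 FPKM in 3 or more of these 6 libraries, out of 24692 entries in the deposited table. FPKM counts the sequenced fragments of a gene per kilobase of its length, relative to the depth of its library. The whole series has 12 libraries from 4 populations, with dermal stem cells and dermal papilla as the other two. Every group came from the same kind of animal: male mice at postnatal day 26 to 27, in early anagen (the opening of hair growth), carrying Sox2:GFP and aSMA:dsRed. In these animals a green reporter follows Sox2 and a red one follows smooth muscle alpha-actin, so Acta2 and Sox2 may bear on the sort. Cells were freed from back skin by dispase, then collagenase, stained with antibodies that the labels do not name and sorted by flow cytometry. The gates are not given, and whether the 3 libraries of a group come from different mice is not stated, so the spread behind each p-value may be technical. No group was treated. The dermal sheath library called replicate 1 is titled DSL1. The meaning of the L is not given, so its replicate number is an assumption.

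The dermal sheath is a sleeve of connective tissue cells around the hair follicle, and its cells carry the contractile proteins of smooth muscle. The interfollicular dermis is the fibroblast-rich connective tissue between follicles. In early anagen the follicle epithelium grows down into the dermis. Sonic hedgehog from that epithelium signals through the receptor Ptch1 to Gli transcription factors, and Wnt ligands signal through Frizzled receptors. R-spondins and their LGR receptors strengthen the Wnt signal.

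The labels were first checked against marker genes, and the fibroblast markers were low in both groups. Pdgfra, the receptor that marks dermal fibroblasts, was at 4.22, 1.52 and 3.95 FPKM in the libraries labelled dermal sheath (replicates 4, 5 and 1) and at 3.32, 2.24 and 4.95 FPKM in those labelled interfollicular dermis (replicates 1, 2 and 6). Triplets of values below keep this order. The dermal stem cell libraries averaged 56.2 ± 12.5 FPKM of Pdgfra (SD, n = 3). The 20 general fibroblast markers summed to 1244 to 2394 FPKM per library labelled dermal sheath and 1026 to 2056 FPKM per library labelled interfollicular dermis, against 13376 to 17772 FPKM in dermal stem cells. Keratinocyte genes were abundant as well. Krt5, a keratin of basal keratinocytes, was at 366, 411 and 406 FPKM in the first group and at 305, 430 and 398 FPKM in the second, and the basal keratinocyte list summed to 1954 to 2218 and 1827 to 2165 FPKM, against 703 to 1186 FPKM in dermal stem cells and 846 to 1947 FPKM in dermal papilla. Suprabasal epidermal genes were found in the other populations too, with 1283 to 2374 FPKM in dermal stem cells and 2224 to 9209 FPKM in dermal papilla. Itga8, a dermal sheath marker, did not exceed 2.30 FPKM in any of the 6 libraries, and Sox2 did not exceed 0.345 FPKM. These levels go against the dermal labels of both groups, so the groups are called DS-labelled and IFD-labelled, and no cell type is assigned to them. In such bulk samples, fewer cells of a type and less RNA per cell cannot be told apart.

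Some marker lists of other skin cell types differed between the groups, as summed FPKM per library. Melanocyte genes summed to 49.2 to 56.7 FPKM in DS-labelled and 223.6 to 1211 FPKM in IFD-labelled libraries. Erythroid genes summed to 2.31 to 45.2 and 705 to 3944 FPKM. Suprabasal epidermal genes summed to 326 to 733 and 1692 to 2365 FPKM, hair matrix and shaft genes to 188.7 to 478 and 694 to 995 FPKM, and upper follicle and sebaceous gland genes to 377 to 438 and 1121 to 1692 FPKM. The inner root sheath sum was the reverse, at 1465 to 1644 and 920 to 975 FPKM, but its members were mixed. Of 15 tested, 6 were higher and 4 lower without overlap, a separation found in 22.7% of all genes tested. None of these summed ranges overlapped. Those of the endothelial, pericyte, Schwann cell, adipocyte, macrophage, Langerhans cell, T cell and mast cell lists did overlap. The part of any of these cell types in the gene differences below was not tested.

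**Figure D1:**
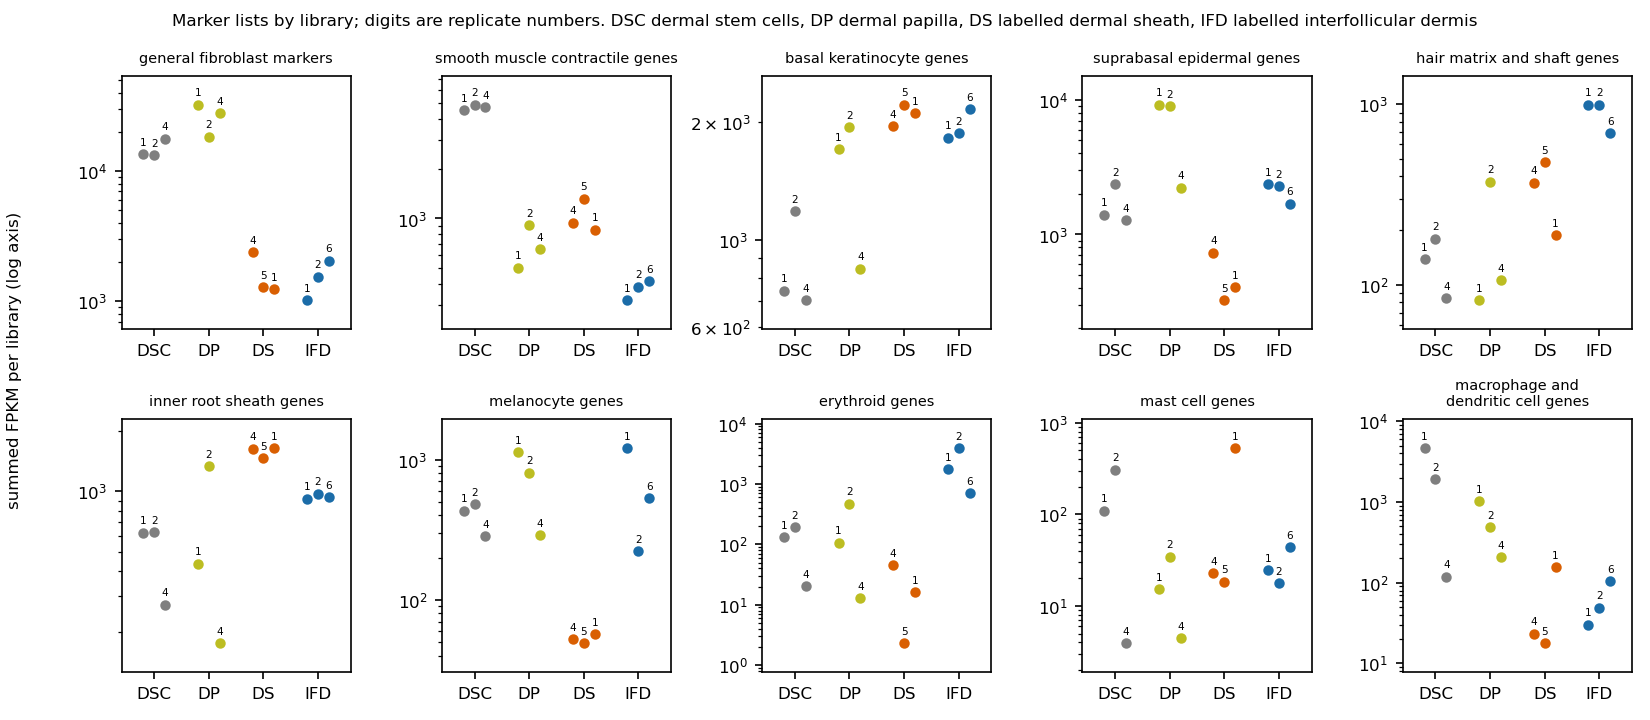
Summed FPKM of 10 marker lists in each of the 12 libraries, on log axes; each point is a library and the digit is its replicate number. The general fibroblast sums of the DS-labelled and IFD-labelled libraries (1026 to 2394 FPKM) lie below those of dermal stem cells (13376 to 17772 FPKM), and the melanocyte and erythroid sums separate the DS-labelled from the IFD-labelled libraries.

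A library of each group deviated together. DS-labelled replicate 1 and IFD-labelled replicate 6 deviated from their group means in the same direction across genes (correlation of the deviations 0.467 over the 11274 genes), and they correlated with each other (0.891) more than IFD-labelled replicates 6 and 1 did (0.881), though not more than replicates 6 and 2 did (0.893). IFD-labelled replicates 1 and 2 correlated at 0.936. Within the DS-labelled group the correlations were alike, at 0.905 to 0.918, and replicate 1 was not the least correlated. These correlations are of log2(FPKM + 1) across genes. Both were also the deepest by an approximate relative depth, at 2.14 and 2.75 times DS-labelled replicate 4, against 1.01 to 1.38 for the other 3. DS-labelled replicate 1 alone was rich in mast cell genes, at 529.8 FPKM summed against 17.8 to 43.7 FPKM in the other 5 libraries. Results are therefore given with and without both, called the libraries that stood apart. The total FPKM per library ran from 181683 to 218817, and 10711 to 11519 genes reached 1 FPKM.

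Across the 11274 genes, 318 (2.82%) passed an adjusted p of 0.05 in limma, which compared mean log2(FPKM + 1) between the groups. Of these, 131 (1.16%) were higher in DS-labelled libraries and 187 (1.66%) were lower. Each count of called list members below is to be read against these shares. A gene under 1 FPKM in every library of a group entered the test only through the other group, so the filter set its direction. Among the named genes this holds for Fgf5 and Ccnd3 on the higher side. On the lower side it holds for Alas2, Aadac, Wnt3, Xcl1, Il2rb, Selenbp1 and Cidea, among others. A difference below is the DS-labelled mean minus the IFD-labelled mean on the log2(FPKM + 1) scale, with its standard error (SE), and it understates the change of low genes. All but 1 of the 318 had no overlap between the 3 and 3 libraries, a separation found in 2562 of all genes tested (22.7%). At least a 2-fold change was fitted for 306, and the median difference over all genes was 0.08. Without DS-labelled replicate 1 and IFD-labelled replicate 6, 124 genes passed (56 higher, 68 lower), and 103 of those are among the 318. Leaving out single libraries gave from 133 calls (without IFD-labelled replicate 1) to 345 (without IFD-labelled replicate 6), with 135 without DS-labelled replicate 5, 174 without IFD-labelled replicate 2 and 198 without DS-labelled replicate 1.

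**Figure D2:**
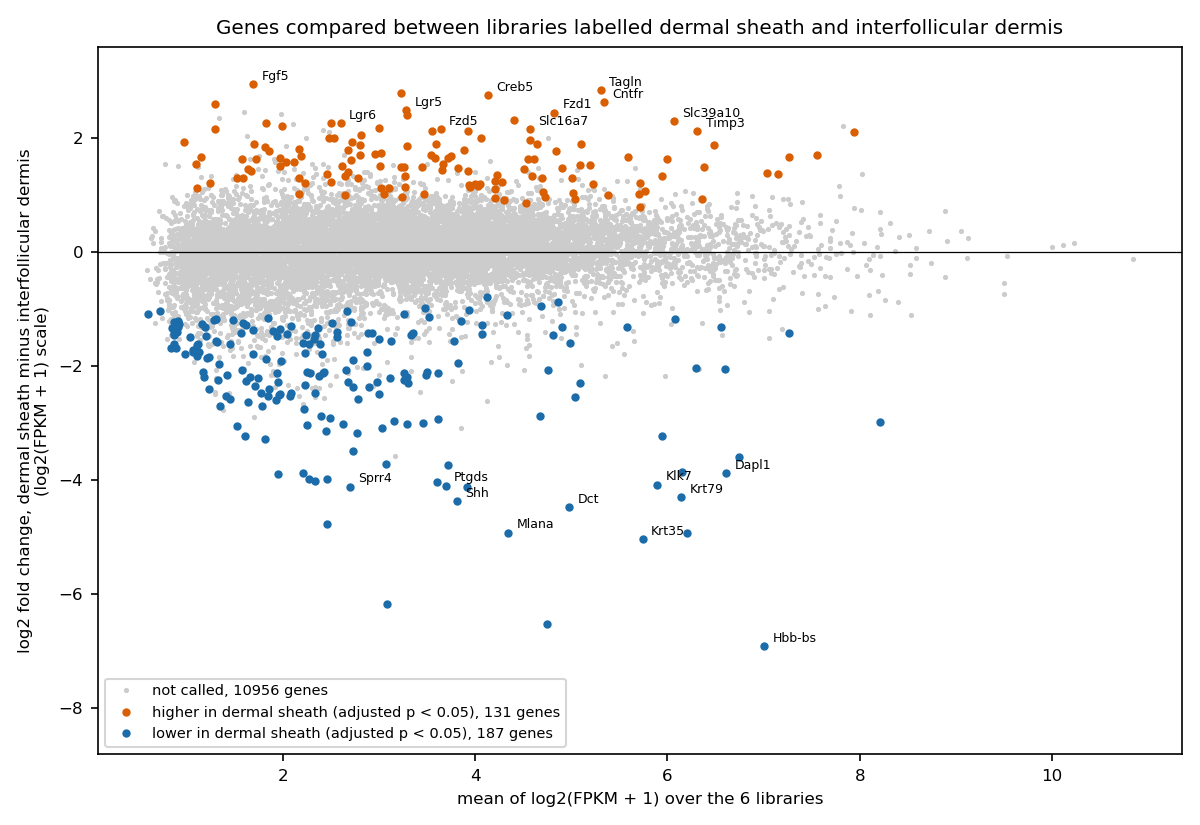
Difference between the groups (log2 scale, vertical axis) against the mean log2(FPKM + 1) of the 6 libraries (horizontal axis), with one point per gene. The 131 genes that passed as higher reach a difference of 2.94 (Fgf5), while the 187 that passed as lower reach -6.91 (Hbb-bs), so the larger differences lie on the lower side.

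The largest differences on the higher side were those of Fgf5, Tagln, Creb5 and Cntfr. Creb5 (chr6:53287226-53700364), a transcription factor gene of the CREB family, was at 30.9, 61.8 and 46.7 FPKM in DS-labelled libraries and at 5.76, 3.27 and 9.71 FPKM in IFD-labelled ones. The groups did not overlap, and the difference was 2.76 ± 0.34 (SE; adjusted p = 0.00088). Cntfr (chr4:41657498-41697091), which encodes the receptor subunit that binds ciliary neurotrophic factor and is listed among dermal papilla markers, was at 79.0, 150 and 83.6 FPKM against 9.79, 16.2 and 21.9 FPKM. Its level in dermal papilla was only 5.74 ± 2.12 FPKM (SD, n = 3), and the difference between the compared groups was 2.64 ± 0.42 (adjusted p = 0.00526). Of 25 dermal papilla markers tested, 2 were higher (Cntfr and Ptch1) and 1 lower (Bmp4), against 1.16% and 1.66% of all genes. Only 5 of the 25 differences were above 0, and their median was -0.70. Flrt2, which encodes a membrane protein that binds FGF receptors and Unc5 receptors, was at 19.5, 32.1 and 16.03 FPKM against 2.93, 2.97 and 3.97 FPKM. It differed by 2.41 ± 0.29 (adjusted p = 0.000775). Timp3, an inhibitor of matrix metalloproteinases, stood at 139, 225 and 145 FPKM against 38.5, 35.3 and 37.2 FPKM, a difference of 2.13 ± 0.27 (adjusted p = 0.00106). The calls of Creb5, Cntfr, Flrt2 and Timp3 held without each single library and without both libraries that stood apart.

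Fgf5, the growth factor that ends anagen, had the largest difference among the genes named on the higher side. It was at 4.81, 9.88 and 10.5 FPKM in DS-labelled and at 0.0799, 0.392 and 0.0575 FPKM in IFD-labelled libraries, so each IFD-labelled library was close to 0. The difference of 2.94 ± 0.43 (adjusted p = 0.00329) was lost without both libraries that stood apart (adjusted p = 0.0531). Transporter genes were also among the largest. Slc39a10, a zinc importer, averaged 153 ± 43.5 against 30.0 ± 8.97 FPKM (SD, n = 3), and Slc16a7, a monocarboxylate transporter, 51.1 ± 17.4 against 10.3 ± 1.56 FPKM. Slc1a3, a glutamate transporter, averaged 10.4 ± 2.33 against 1.84 ± 0.70 FPKM. Their differences of 2.31, 2.16 and 2.01 passed in every fit with a library left out. Fam26e, a member of the calcium homeostasis modulator family, was 2.13 higher and also kept its call, and Cyp2s1, a cytochrome P450 gene, was 2.19 higher but lost it without DS-labelled replicate 5 (adjusted p = 0.09), without IFD-labelled replicate 1 (0.0915) and without both libraries that stood apart (0.103).

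**Figure D3:**
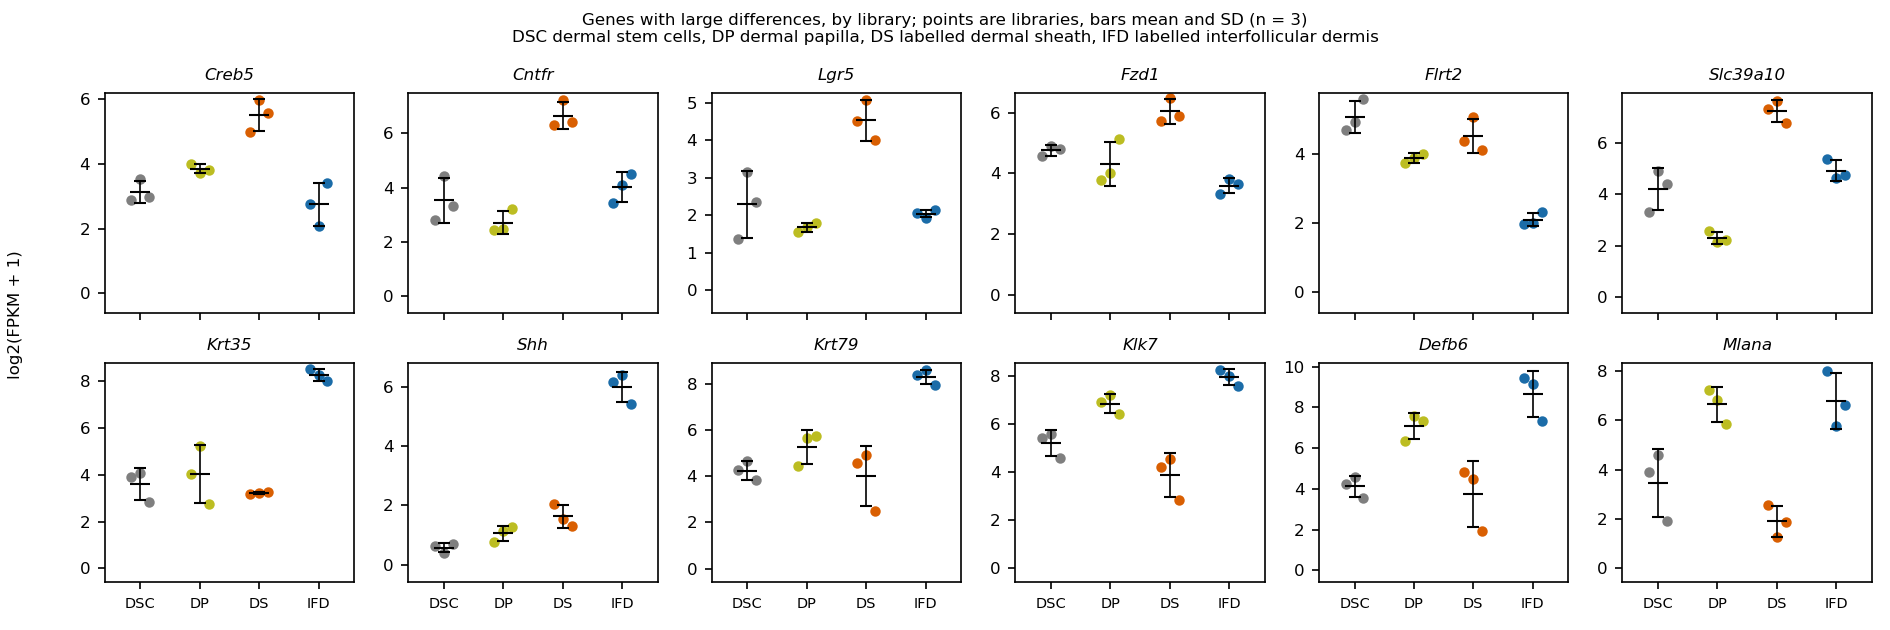
Level of 12 genes in each library of the 4 populations, as log2(FPKM + 1); points are libraries and bars are the mean and SD (n = 3). For Creb5, Cntfr, Lgr5, Fzd1, Flrt2 and Slc39a10 the DS-labelled points lie above the IFD-labelled points, and for Krt35, Shh, Krt79, Klk7, Defb6 and Mlana they lie below.

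Contractile genes of smooth muscle, the proteins for which the dermal sheath is known, were higher in DS-labelled libraries for 8 of 20 tested, with 0 lower, against 1.16% higher among all genes. All 20 differences were above 0, also under median-of-ratios scaling and quantile normalization, and their median was 0.83, against 0.08 over all genes. Acta2 (chr19:34240336-34255585), whose promoter drives the red reporter, was at 36.2, 76.0 and 35.8 FPKM against 5.72, 10.4 and 9.95 FPKM. Whether the gates of these groups used that reporter is not given, so its difference of 2.32 ± 0.45 (adjusted p = 0.015) is given as a description. Dermal stem cells held 872 ± 26.0 FPKM of Acta2 (SD, n = 3), far above both groups. Tagln (chr9:45929628-45936058), an actin-binding protein of smooth muscle, was at 99.6, 258 and 44.8 FPKM against 8.01, 19.0 and 16.9 FPKM, and all 3 DS-labelled values were above the IFD-labelled ones though spread widely. It differed by 2.85 ± 0.52 (adjusted p = 0.0115). Smtn, which encodes smoothelin, was at 33.6, 67.5 and 46.6 FPKM against 7.20, 14.3 and 16.2 FPKM, a difference of 1.90 ± 0.30 (adjusted p = 0.00489). Myl9, the regulatory myosin light chain, was at 57.0, 101 and 48.1 FPKM against 13.04, 24.7 and 14.8 FPKM.

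Not every contractile gene followed. Myh11, the smooth muscle myosin heavy chain, was at 2.22, 0.234 and 16.6 FPKM against 0.194, 2.40 and 5.35 FPKM, and the groups overlapped (adjusted p = 0.825). Cnn1 (calponin) averaged 3.34 ± 1.69 against 0.991 ± 0.531 FPKM (SD, n = 3; adjusted p = 0.318 in limma), and Des (desmin) overlapped as well (adjusted p = 0.817). Myh11, Cnn1 and Des fall outside the rule for named genes and were chosen after their values were seen. The number of contractile genes called was 5 without DS-labelled replicate 4, DS-labelled replicate 1, IFD-labelled replicate 2 or IFD-labelled replicate 6. It was 4 without DS-labelled replicate 5, 2 without IFD-labelled replicate 1 and 3 without both libraries that stood apart. Among the named ones, Smtn kept its call in every such fit and Tagln lost it without IFD-labelled replicate 1 (adjusted p = 0.0674). Acta2 lost it without DS-labelled replicate 5, without IFD-labelled replicate 1 and without both libraries that stood apart (adjusted p = 0.0744, 0.0785 and 0.0614), and Myl9 without those and without IFD-labelled replicate 6 (adjusted p = 0.0536 to 0.0999).

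The promoter table of RefSeq (GRCm38.p6, from 250 bases before to 50 bases after a start site) held 5 of the 8 called contractile genes. Both strands were searched for the CArG box, which serum response factor binds in smooth muscle genes, and for TGACGTCA (the site of CREB factors), TGANTCA (the site of AP-1), CCAAT (the site of NF-Y), TTTGAA (the core of the TCF/LEF site) and GACCACCCA (the site of Gli factors). The CArG box was searched only in its strict form, with A or T at all 6 middle positions. That form was found in the promoter of Myl9 among Acta2, Myl9, Tpm1, Smtn and Cald1, and in 1.63% of all 32851 promoters. Looser CArG elements, such as those known in the Acta2 promoter, were not searched, so the lack of a match says nothing of serum response factor there. CCAAT was found in those of Tpm1, Smtn and Cald1 and in 37.4% of all. The other 4 motifs were in none of the 5, and in 1.79%, 7.81%, 17.9% and 0.253% of all promoters in the order above. The Myl9 promoter (chr2:156775214-156775513, plus strand, 5′ to 3′) is shown because it holds that match, in capitals, overlapping no other motif searched.
Myl9: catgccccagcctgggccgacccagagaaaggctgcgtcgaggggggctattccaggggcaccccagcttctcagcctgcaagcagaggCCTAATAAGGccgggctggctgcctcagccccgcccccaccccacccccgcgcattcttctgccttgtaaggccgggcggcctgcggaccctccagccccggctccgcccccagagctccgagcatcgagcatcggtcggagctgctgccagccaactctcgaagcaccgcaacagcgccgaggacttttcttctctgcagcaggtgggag

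Dermal sheath markers, as a list, gave 4 of 13 tested higher and 1 lower, against 1.16% higher and 1.66% lower among all genes. Besides Acta2 and Tagln, the higher ones were Bgn (biglycan, a small matrix proteoglycan) and Mcam, a cell adhesion molecule also found on pericytes. Bgn was at 168, 225 and 130 FPKM against 36.9, 49.7 and 51.6 FPKM, without overlap, and differed by 1.88 ± 0.32 (adjusted p = 0.00791). Mcam averaged 23.0 ± 4.85 against 7.88 ± 3.33 FPKM (SD, n = 3) and differed by 1.49. Abi3bp, a matrix protein, was the lower one, at 3.83 ± 1.34 against 12.8 ± 3.14 FPKM. Of the 13, without DS-labelled replicate 5 there were 2 higher and 0 lower, without IFD-labelled replicate 1 there was 1 higher and 0 lower, without IFD-labelled replicate 6 there were 4 and 0, and without both libraries that stood apart 3 and 0. Bgn kept its call in every fit with a library left out. Mcam lost its call without DS-labelled replicate 5 (adjusted p = 0.0688) and IFD-labelled replicate 1 (0.0538), and Abi3bp without DS-labelled replicate 5 and IFD-labelled replicates 1 and 6 (0.0999, 0.0943 and 0.0513).

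Of 23 Wnt receptor and R-spondin genes tested, 6 were higher in DS-labelled libraries and 0 lower, while 17 did not pass. Among all genes 1.16% were higher. The list median was 0.36. The 6 were the receptors Fzd1, Fzd4 and Fzd5 and the R-spondin receptors Lgr4, Lgr5 and Lgr6, so all 3 of these LGR receptors are among them. Fzd4 and Lgr4 fall outside the rule for named genes. Lgr5 (chr10:115450314-115587780), also a stem cell marker of the hair follicle, was at 21.7, 32.8 and 14.98 FPKM against 3.13, 2.83 and 3.37 FPKM. The lowest DS-labelled value was thus far above the highest IFD-labelled one, and the difference was 2.49 ± 0.39 (adjusted p = 0.00525). Lgr6 was at 9.48, 20.9 and 9.23 FPKM against 1.62, 1.48 and 2.27 FPKM, a difference of 2.26 ± 0.33 (adjusted p = 0.00335). Fzd1 was at 52.2, 89.4 and 58.8 FPKM against 9.05, 12.98 and 11.5 FPKM, a difference of 2.45 ± 0.33 (adjusted p = 0.00166). Fzd5 was at 19.2, 25.1 and 33.9 FPKM against 4.73, 3.96 and 6.19 FPKM and differed by 2.17. These groups did not overlap for any of the 4. The R-spondin ligands did not pass: Rspo3 and Rspo2, the pair with the largest differences among the rest of the list and named after their values were seen, differed by -1.45 and -1.24 (adjusted p = 0.169 and 0.188). The count of 6 was 5 without any one library and 4 without both that stood apart. Lgr5, Lgr6 and Fzd1 kept their calls in all of these fits, and Fzd5 lost it only without both that stood apart (adjusted p = 0.0645).

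Of 9 Wnt ligands tested, 4 were lower in DS-labelled libraries and 0 higher, against 1.66% lower among all genes. The list median was -0.70, which also stayed below 0 under both other scalings. Wnt10b, a ligand active in the growing follicle, was at 4.57, 2.22 and 1.18 FPKM in DS-labelled and 19.4, 18.2 and 16.3 FPKM in IFD-labelled libraries, without overlap. It differed by -2.48 ± 0.47 (adjusted p = 0.0138). Wnt3 was at 0.0209, 0.427 and 0.412 FPKM against 4.70, 4.11 and 5.13 FPKM and differed by -2.15 ± 0.50. It reached 1 FPKM only in IFD-labelled libraries, so the filter fixed its direction. Wnt10a averaged 2.01 ± 0.29 against 8.38 ± 2.66 FPKM and Wnt7b 0.506 ± 0.548 against 2.47 ± 0.31 FPKM (SD, n = 3). These calls depended on single libraries. None of the 4 was called without DS-labelled replicate 5, IFD-labelled replicate 1 or IFD-labelled replicate 2, nor without both libraries that stood apart, and the count was 1 without DS-labelled replicate 4 or 1 and 2 without IFD-labelled replicate 6. The adjusted p over the fits that lost the call ran from 0.0545 to 0.103 for Wnt10b, from 0.0774 to 0.15 for Wnt3, from 0.0932 to 0.187 for Wnt10a and from 0.062 to 0.138 for Wnt7b.

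Genes that respond to or restrain Wnt signalling were mixed. Of 15 Wnt target and TCF/LEF genes, 1 was higher (Lgr5; 3 without DS-labelled replicate 1) and 2 lower, and of 7 secreted antagonists 1 was lower. Tnfrsf19, a receptor of the TNF family, was at 18.9, 14.6 and 14.7 FPKM against 48.0, 48.9 and 40.3 FPKM, a difference of -1.46 ± 0.23 (adjusted p = 0.00508) that held in every fit with a library left out. Notum, a secreted enzyme that inactivates Wnt ligands and is on both lists, averaged 1.38 ± 0.85 against 9.24 ± 3.69 FPKM (SD, n = 3). Its call was lost without DS-labelled replicate 5 or 1, without IFD-labelled replicate 1 or 2 and without both that stood apart (adjusted p = 0.0582 to 0.0904). Axin2, the usual readout of Wnt signalling and named after its values were seen, was at 9.49, 7.47 and 5.85 FPKM against 13.96, 12.2 and 15.2 FPKM. Its groups did not overlap, but it did not pass (difference -0.80 ± 0.41, adjusted p = 0.353). Among 20 BMP pathway genes, Bmp4, a ligand made by follicle mesenchyme, was the only call, at 4.54 ± 1.88 against 23.5 ± 7.86 FPKM, and it was lost without each single library in turn (adjusted p = 0.0504 to 0.157).

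In the hedgehog pathway the ligand Shh was lower in DS-labelled libraries, and Ptch1, Gli1 and Gli2 were higher. Shh (chr5:28456840-28467101) was at 3.13, 1.88 and 1.48 FPKM in DS-labelled and at 70.1, 83.7 and 41.5 FPKM in IFD-labelled libraries. Dermal stem cells and dermal papilla averaged 0.490 ± 0.157 and 1.10 ± 0.35 FPKM (SD, n = 3), so the IFD-labelled libraries stood alone among the 4 populations in its level. Shh fell by 4.36 on the log2 scale (SE 0.31, adjusted p = 3.55e-05) and kept its call in every fit with a library left out. Ptch1, the receptor and a direct target, was at 45.0, 57.7 and 53.5 FPKM against 10.3, 11.98 and 24.4 FPKM. Gli1, a transcription factor and target of the pathway, was at 41.9, 61.0 and 45.3 FPKM against 10.5, 20.7 and 22.2 FPKM. Gli2, its main activator, was at 8.29, 12.1 and 9.42 FPKM against 2.64, 2.65 and 5.30 FPKM. For all 3 the lowest DS-labelled library lay above the highest IFD-labelled one, and the differences were 1.77 ± 0.40, 1.47 ± 0.31 and 1.31 ± 0.32 (adjusted p = 0.0354, 0.0224 and 0.0458). Those 3 calls depended on single libraries: without DS-labelled replicate 5, DS-labelled replicate 1 or IFD-labelled replicate 1, and without both libraries that stood apart, none of the 3 passed (adjusted p = 0.0572 to 0.191). Without DS-labelled replicate 4 or IFD-labelled replicate 2, Gli1 passed and Ptch1 and Gli2 did not (0.0721 to 0.175).

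Other genes of the pathway did not pass. Smo, the signal transducer, differed by 1.19 ± 0.35 (adjusted p = 0.101), and Hhip, a membrane inhibitor, by -0.68 ± 0.59 (adjusted p = 0.622). Smo and Hhip were named after their values were seen. In all, 3 of 13 tested pathway genes were higher and 1 lower, against 1.16% and 1.66% of all genes, with a median of 0.16. Median-of-ratios scaling left 1 higher and 1 lower.

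**Figure D4:**
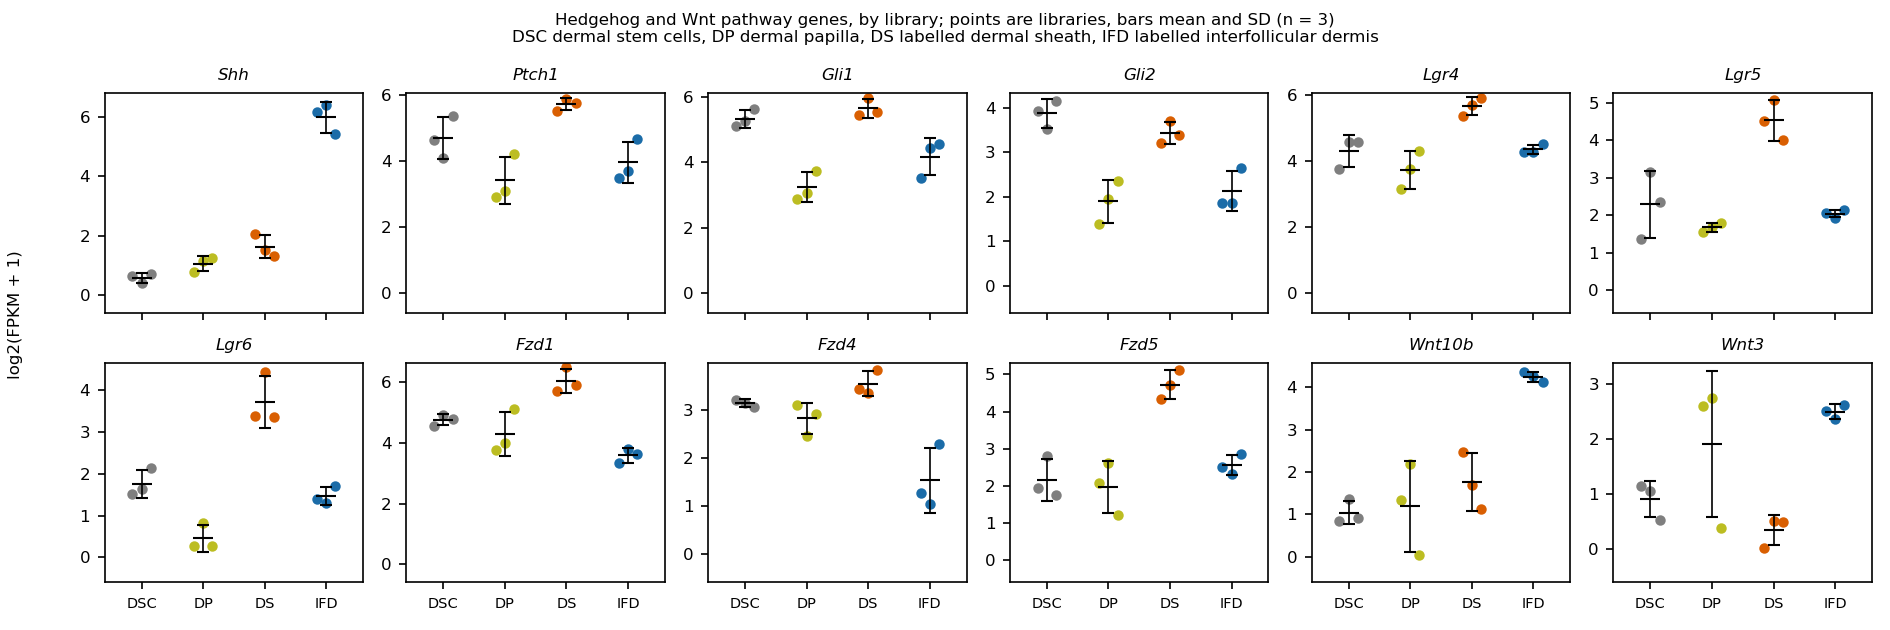
Levels of 12 hedgehog and Wnt pathway genes in each library of the 4 populations, as log2(FPKM + 1); points are libraries and bars are the mean and SD (n = 3). Shh, Wnt10b and Wnt3 are lower in DS-labelled than in IFD-labelled libraries, while Ptch1, Gli1, Gli2 and the LGR and Frizzled receptors shown are higher.

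Of 20 hair matrix and shaft genes tested, 5 were lower in DS-labelled libraries and 0 higher (median -0.99, against 1.66% lower among all genes). Krt35 (chr11:100092192-100096224), a hard keratin of the hair shaft cuticle, was at 8.17, 8.26 and 8.70 FPKM against 365, 306 and 254 FPKM. It fell by 5.03 on the log2 scale (SE 0.49, adjusted p = 0.000298), and the DS-labelled libraries hardly differed among themselves. Selenbp1, a selenium-binding protein, averaged 0.257 ± 0.061 against 7.46 ± 4.12 FPKM (SD, n = 3). Dsg4, the desmoglein of the hair shaft, was at 0.375, 0.291 and 1.62 FPKM against 18.9, 5.07 and 20.1 FPKM. Krt35, Selenbp1 and Shh, which is also on this list, kept their calls without every library, while Dsg4 lost it without DS-labelled replicate 4 or 5, without IFD-labelled replicate 1 or 6 and without both that stood apart (adjusted p = 0.0526 to 0.0835). The count of 5 was 3 without DS-labelled replicate 4, IFD-labelled replicate 1, IFD-labelled replicate 6 or both that stood apart.

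Upper follicle and sebaceous gland genes were lower for 4 of 15 tested and higher for 0, with a median of -1.27. Among all genes 1.66% were lower. Krt79, a keratin of the follicle's upper duct, was at 23.0, 28.9 and 4.64 FPKM against 325, 379 and 245 FPKM and differed by -4.29 ± 0.53 (adjusted p = 0.000993). Defb6, a beta-defensin, was at 27.6, 21.6 and 2.74 FPKM against 708, 575 and 162 FPKM and differed by -4.92 ± 0.71 (adjusted p = 0.00285). In both genes DS-labelled replicate 1 was the lowest of its group and IFD-labelled replicate 6 the lowest of the other. Cidea, a lipid droplet protein of sebocytes, averaged 0.177 ± 0.283 against 5.93 ± 5.81 FPKM, and Ly6g6c 14.4 ± 8.22 against 80.9 ± 23.9 FPKM (SD, n = 3). Krt79 and Defb6 kept their calls in all fits with a library left out. Cidea kept it only without IFD-labelled replicate 2 among those fits (adjusted p = 0.0589 to 0.147 in the others), and Ly6g6c only without DS-labelled replicate 4 or IFD-labelled replicate 6 (0.0881 to 0.137 in the others). The count was 2 without DS-labelled replicate 5 or 1, IFD-labelled replicate 1 or both that stood apart.

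Suprabasal epidermal genes, which mark keratinocytes that have left the basal layer, were lower for 4 of 17 tested and higher for 0 (median -1.97). Among all genes 1.66% were lower. Sprr1a, a cornified envelope precursor, was at 142, 124 and 64.1 FPKM against 1100, 866 and 598 FPKM and differed by -2.98 ± 0.54 (adjusted p = 0.00995). Krtdap, a differentiation-associated secreted protein, was at 104, 8.88 and 27.0 FPKM against 465, 550 and 198 FPKM. Casp14, a protease of cornification, averaged 3.59 ± 1.42 against 37.3 ± 20.8 FPKM, and Sbsn (suprabasin) 41.5 ± 22.3 against 159 ± 15.3 FPKM (SD, n = 3). Krt10, the main suprabasal keratin, was lower in each DS-labelled library but did not pass, at 101, 11.5 and 47.4 FPKM against 120, 166 and 215 FPKM (adjusted p = 0.13). The count of 4 fell to 2 without DS-labelled replicate 5, to 1 without DS-labelled replicate 1, IFD-labelled replicate 2 or both that stood apart, and to 0 without IFD-labelled replicate 1. Without that library the adjusted p was 0.0582 for Sprr1a, 0.112 for Krtdap, 0.0806 for Casp14 and 0.102 for Sbsn. Fitted on the 6 libraries alone, 8 of the 17 were lower.

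Further genes were among the 15 largest differences on the lower side. Klk7 (chr7:43811294-43816387), a protease that sheds the outermost epidermal cells, was at 17.3, 22.5 and 6.10 FPKM against 303, 251 and 189 FPKM and differed by -4.07 ± 0.41 (adjusted p = 0.000298). Dapl1, a gene of epithelial differentiation, was at 32.4, 23.6 and 19.4 FPKM against 651, 277 and 285 FPKM and differed by -3.87 ± 0.46 (adjusted p = 0.000775). Sprr4, another cornified envelope precursor, was at 0.282, 1.61 and 0.132 FPKM against 44.6, 25.9 and 14.97 FPKM. Aadac, an esterase gene, averaged 0.226 ± 0.164 against 18.8 ± 6.12 FPKM (SD, n = 3) and differed by -3.97 ± 0.34. These 4 calls held in all fits with a library left out. Mt4, a metallothionein of stratified epithelium, was at 33.0, 23.3 and 7.03 FPKM against 403, 339 and 142 FPKM, and lost its call without DS-labelled replicate 5 or 1, without IFD-labelled replicate 1 or 2 and without both that stood apart (adjusted p = 0.0512 to 0.0858). Mt4 and Wnt3 were the 2 lower genes among 12 of the interfollicular basal epidermis, whose median was -0.72, and 0 of the 12 passed without both that stood apart. Gpnmb, a melanosome glycoprotein also made by macrophages, was at 1.49, 3.03 and 1.70 FPKM against 70.4, 32.8 and 47.3 FPKM and kept its call in all fits with a library left out. Ptgds, a prostaglandin D synthase, was at 4.37, 1.19 and 1.63 FPKM against 139.6, 15.1 and 66.6 FPKM (adjusted p = 0.0497) and kept it only without IFD-labelled replicate 2 (0.0804 to 0.213 in the others).

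The other epithelial lists varied in their calls. None of 20 basal keratinocyte genes passed (0 higher, 0 lower, median 0.41). Krt14, the partner of Krt5, was lower in each DS-labelled library, at 59.2, 86.1 and 92.3 FPKM against 182, 266 and 229 FPKM, but missed the threshold (adjusted p = 0.0577), and it passed with a pseudocount of 5, with either other scaling and in the fit of the 6 libraries alone. Trp63, the transcription factor of stratified epithelium, was at 116, 147 and 98.7 FPKM against 98.1, 75.8 and 93.2 FPKM (adjusted p = 0.595). Of 15 outer root sheath and companion layer genes, 3 were higher (Lgr5, Slc1a3 and Tnc) and 1 lower (Krt6a, a companion layer keratin). Among all genes 1.16% were higher and 1.66% lower. Tnc, an extracellular matrix glycoprotein, was at 26.2, 29.7 and 43.7 FPKM against 6.01, 7.46 and 8.80 FPKM, and Krt6a was at 2.48, 4.67 and 4.12 FPKM against 9.48, 12.4 and 12.8 FPKM. Among the fits with a library left out, Tnc and Krt6a lost their calls only without both libraries that stood apart (adjusted p = 0.0536 and 0.0644). Bulge and hair germ genes had a median of 0.86, 15 of 19 differences above 0 and sums that did not overlap, at 485 to 961 FPKM in DS-labelled and 308 to 438 FPKM in IFD-labelled libraries, yet 2 were called higher (Lgr5 and Lgr6; 4 without DS-labelled replicate 1) and 1 lower. That one was Foxc1, a transcription factor of bulge stem cells, at 1.72 ± 0.64 against 7.14 ± 1.71 FPKM, which lost its call without DS-labelled replicate 5 or 1, without IFD-labelled replicate 1 and without both that stood apart (adjusted p = 0.0535 to 0.129). Of 15 inner root sheath genes 1 was higher, Cux1, a transcription factor of that layer, at 279 ± 66.6 against 85.3 ± 12.7 FPKM (SD, n = 3). It was lost without DS-labelled replicate 5, IFD-labelled replicates 1 or 2, or both that stood apart (adjusted p = 0.0635 to 0.0863).

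**Figure D5:**
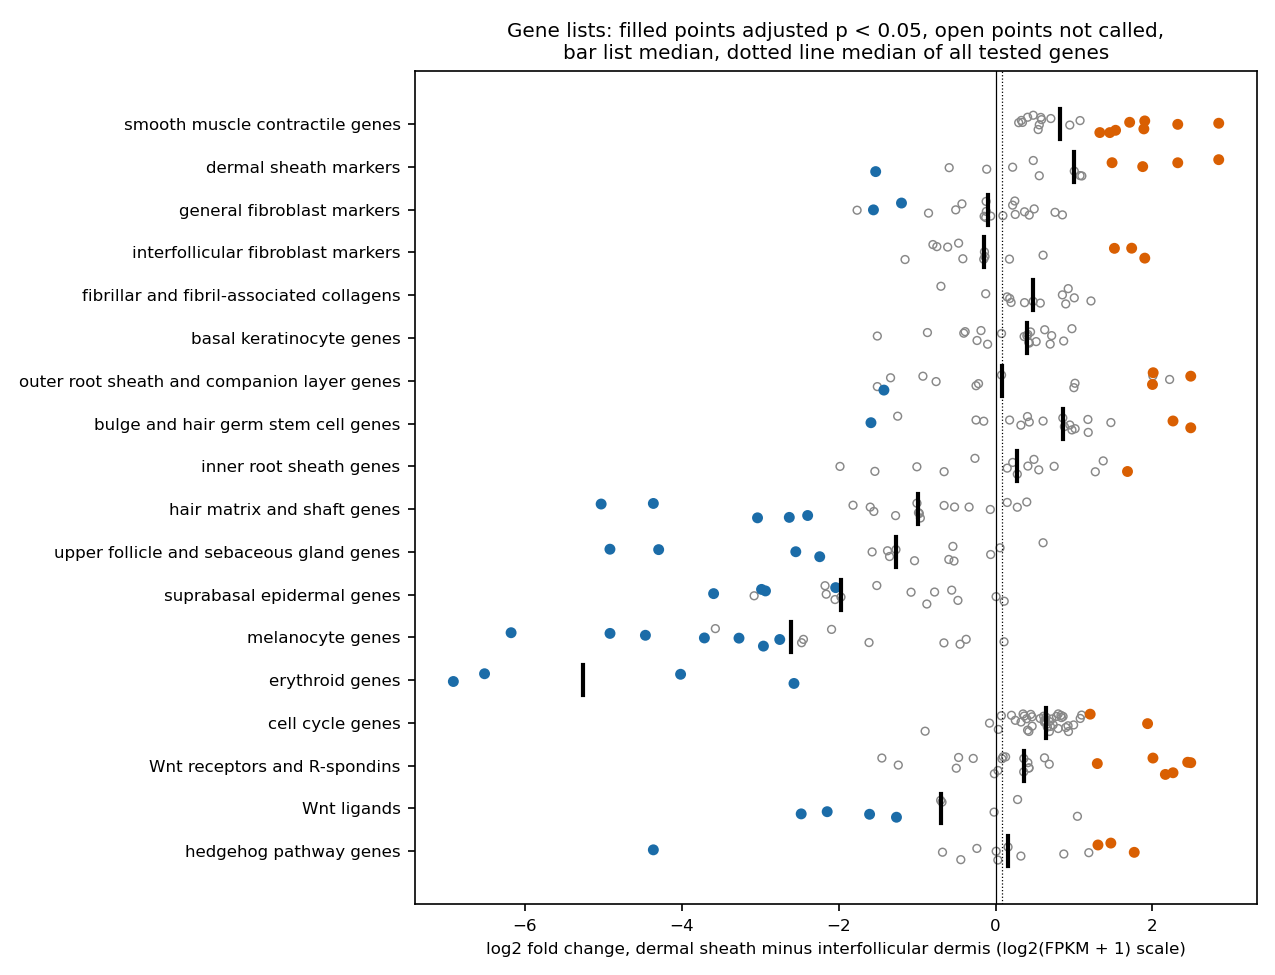
Differences of single genes (log2 scale) in 18 lists; filled points passed an adjusted p of 0.05, open points did not, the bar is the list median and the dotted line the median of all genes (0.08). Contractile genes lie to the right of 0, and melanocyte and erythroid genes have medians of -2.61 and -5.26.

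Pigment genes were lower in DS-labelled libraries for 7 of 16 melanocyte genes tested and higher for 0, with a median of -2.61. Among all genes 1.66% were lower. Mlana (chr19:29697541-29708447), a melanosome protein, was at 4.81, 1.39 and 2.65 FPKM against 259, 53.4 and 97.0 FPKM and differed by -4.91 ± 0.68 (adjusted p = 0.00201). Dct, an enzyme of melanin synthesis, was at 7.17, 5.77 and 4.48 FPKM against 356, 58.0 and 153 FPKM and differed by -4.46 ± 0.70 (adjusted p = 0.00508). Pmel, the fibril protein of melanosomes, was listed at 0 in all 3 DS-labelled libraries and at 177, 28.6 and 70.4 FPKM in the IFD-labelled ones, so no fold is given. Its locus overlaps Rab5b, Cdk2 and Dgka, and an exact 0 can be a failed estimate in such a table. Trpm1, a cation channel of melanocytes, was at 2.204, 1.42 and 0.615 FPKM against 68.9, 9.76 and 36.3 FPKM. In each of these genes IFD-labelled replicate 1 was the highest and replicate 2 the lowest of its group. Kit, the receptor that melanocytes share with mast cells, and Mitf, the melanocyte transcription factor, overlapped between the groups (adjusted p = 0.641 and 0.694); both were named after their values were seen. Among the fits with a library left out, Mlana and Pmel kept their calls in all, and Dct lost it only without both that stood apart (adjusted p = 0.0609). Trpm1 kept it only without IFD-labelled replicate 2 (0.0698 to 0.193 in the others). The count of 7 was 10 without IFD-labelled replicate 2 and 3 without both that stood apart.

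Promoters of 4 of the 7 called melanocyte genes are in the RefSeq table (GRCm38.p6). Besides the motifs above, they were searched on both strands for CATGTG, the core of the element that MITF binds, a motif added after the data were seen. It was in all 4 and in 14.2% of the 32851 promoters. Dct held 2 matches and Tyr, Trpm1 and Slc24a5 held 1 each. CCAAT was in those of Dct, Tyr and Trpm1, TTTGAA in that of Dct, and TGANTCA in that of Slc24a5, where it overlaps the CATGTG match. The 4 promoters are shown because they carry the same letters in genes that were lower together. Capitals mark CATGTG or its reverse complement, and each is written 5′ to 3′ on the strand of its gene. They are Dct (chr14:118052197-118052496, minus strand), Tyr (chr7:87493463-87493762, minus strand), Trpm1 (chr7:64153585-64153884, plus strand, the first of 2 listed starts) and Slc24a5 (chr2:125067877-125068176, plus strand). Tyr, which encodes tyrosinase, averaged 0.883 ± 0.620 against 14.5 ± 13.3 FPKM and Slc24a5, a melanosomal ion exchanger, 2.33 ± 1.12 against 30.4 ± 25.4 FPKM (SD, n = 3). Both fall outside the rule for named genes. Tyr lost its call without DS-labelled replicate 5 or 1 or IFD-labelled replicate 1 (adjusted p = 0.0655 to 0.0947), and both lost it without the pair that stood apart (0.129 and 0.0741).
Dct: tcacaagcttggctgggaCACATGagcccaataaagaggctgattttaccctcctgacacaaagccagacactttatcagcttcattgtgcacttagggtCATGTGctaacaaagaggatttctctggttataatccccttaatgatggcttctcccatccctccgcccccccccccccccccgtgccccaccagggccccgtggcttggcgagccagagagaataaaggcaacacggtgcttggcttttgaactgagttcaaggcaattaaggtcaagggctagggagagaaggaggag
Tyr: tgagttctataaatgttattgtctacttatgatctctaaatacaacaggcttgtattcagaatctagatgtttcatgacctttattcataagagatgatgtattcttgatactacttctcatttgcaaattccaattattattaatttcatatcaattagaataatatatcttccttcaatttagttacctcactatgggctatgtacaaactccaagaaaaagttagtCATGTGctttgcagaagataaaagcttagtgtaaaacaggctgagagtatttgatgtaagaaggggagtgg
Trpm1: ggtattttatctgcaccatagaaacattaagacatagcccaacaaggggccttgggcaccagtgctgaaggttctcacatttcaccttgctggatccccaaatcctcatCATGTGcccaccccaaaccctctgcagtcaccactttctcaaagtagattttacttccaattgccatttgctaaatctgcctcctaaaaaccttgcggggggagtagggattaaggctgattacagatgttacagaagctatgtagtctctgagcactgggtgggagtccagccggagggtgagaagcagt
Slc24a5: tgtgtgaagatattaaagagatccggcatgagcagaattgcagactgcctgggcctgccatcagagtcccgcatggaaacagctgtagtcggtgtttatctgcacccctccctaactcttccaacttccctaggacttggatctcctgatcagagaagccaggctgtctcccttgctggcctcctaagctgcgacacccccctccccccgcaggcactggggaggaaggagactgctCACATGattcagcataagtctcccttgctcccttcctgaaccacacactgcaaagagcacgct

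Erythroid genes had the lowest list median, -5.26, with all 4 tested entries lower. The list has 10 entries, and the rest did not pass the filter. Of those tested, Alas2 and an alpha-globin entry (Hba-a2) reached 1 FPKM only in IFD-labelled libraries, so the filter fixed their direction. Hbb-bs, a beta-globin, was at 39.6, 1.92 and 12.5 FPKM against 1505, 3327 and 555 FPKM and differed by -6.91 ± 1.24 (adjusted p = 0.00974). Hbb-bs, its neighbour Hbb-bt and the alpha-globin copies are nearly identical within each family, so the split of reads between copies is uncertain. Alas2, the erythroid enzyme of haem synthesis, has no such copy and was at 0.270, 0.138 and 0.363 FPKM against 20.3, 33.4 and 10.3 FPKM, a difference of -4.01 ± 0.45 (adjusted p = 0.000545) that held in all fits with a library left out. Hbb-bs lost its call without DS-labelled replicate 5 (adjusted p = 0.051), IFD-labelled replicate 2 (0.0513) and both that stood apart (0.0531), and the count of 4 was 2 without DS-labelled replicate 5 and 1 without both that stood apart.

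The calls among immune cell genes were all on the lower side. Of 12 T cell and innate lymphoid genes 2 were lower (16.7%, against 1.66% of all genes). The list median was -1.26. Without overlap, 7 of the 12 were lower and 0 higher, while 22.7% of all genes were separated in either direction. Those called were Xcl1, a chemokine of activated lymphocytes, and Il2rb, a subunit of the interleukin-2 receptor. Both reached 1 FPKM only in IFD-labelled libraries, so the filter fixed their direction. Xcl1 was at 0.130, 0 and 0.547 FPKM against 12.9, 9.65 and 36.5 FPKM and differed by -3.88 ± 0.41 (adjusted p = 0.000333), a call that held in all fits with a library left out. Il2rb averaged 0.0594 ± 0.0864 against 5.90 ± 7.21 FPKM (SD, n = 3) and kept its call only without IFD-labelled replicates 2 or 6. It was lost in the others (adjusted p = 0.0598 to 0.15). Of 9 Langerhans cell genes 1 was lower, Cd207, the langerin of these epidermal antigen-presenting cells, at 1.62, 0.835 and 1.06 FPKM against 13.7, 6.70 and 13.9 FPKM. Its call was lost without DS-labelled replicate 5, IFD-labelled replicate 1 or both that stood apart (adjusted p = 0.0678, 0.0764 and 0.115). None of 11 macrophage and dendritic cell genes and none of 7 mast cell genes passed. Cpa3, a mast cell protease, was at 2.02, 2.13 and 149 FPKM against 1.14, 0.971 and 2.91 FPKM, so DS-labelled replicate 1 alone was high.

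Fibroblast and matrix genes did not separate the groups as lists. Of 20 general fibroblast markers 0 were higher and 2 lower, S100a4 (7.49 ± 3.28 against 22.7 ± 4.03 FPKM) and Tcf4 (8.81 ± 2.90 against 21.5 ± 5.84 FPKM; SD, n = 3), and the median was -0.09. S100a4, a calcium-binding protein, is also made by immune cells. S100a4 lost its call without DS-labelled replicate 5, IFD-labelled replicates 1 or 6, or both that stood apart (adjusted p = 0.0542 to 0.0951), and Tcf4 in every fit with a library left out except those without DS-labelled replicate 4 or IFD-labelled replicate 6 (0.0507 to 0.122). Col1a1, the main collagen of dermis, was at 373, 229 and 104 FPKM against 23.2, 152 and 415 FPKM, and Vim, the mesenchymal intermediate filament, averaged 117 ± 70.8 against 138 ± 13.3 FPKM. Both overlapped (adjusted p = 0.649 and 0.639). None of 13 fibrillar and fibril-associated collagens, 19 basement membrane genes or 15 integrins passed. Without both libraries that stood apart 1 basement membrane gene was higher, Col4a1, a chain of basement membrane collagen, at 40.4, 70.1 and 48.6 FPKM against 12.9, 17.1 and 38.8 FPKM (adjusted p = 0.063, and 0.017 without both). Without IFD-labelled replicate 6 there were 3, and without DS-labelled replicate 4 there was 1 collagen. Single matrix genes did: besides Timp3 and Bgn, Efemp1 (fibulin-3) was at 30.6, 22.3 and 17.9 FPKM against 5.93, 5.84 and 7.88 FPKM and differed by 1.68 ± 0.22 (adjusted p = 0.00164). It kept its call in all fits with a library left out.

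Of 14 interfollicular fibroblast markers 3 were higher in DS-labelled libraries, the group not named for that tissue, and 0 lower. Among all genes 1.16% were higher. The list as a whole was mixed: only 5 of the 14 differences were above 0. Without overlap, 3 members were higher and 3 lower, a separation found in 22.7% of all genes. Dpp4, a surface peptidase of papillary fibroblasts, was at 15.5, 8.36 and 19.9 FPKM against 4.16, 2.12 and 4.42 FPKM (difference 1.74 ± 0.41, adjusted p = 0.0394). Ackr3, a scavenger receptor for the chemokine Cxcl12, was at 19.6, 33.5 and 17.0 FPKM against 4.87, 4.76 and 6.24 FPKM (difference 1.90 ± 0.30, adjusted p = 0.00526), and Ntn1, the guidance cue netrin-1, averaged 9.75 ± 3.35 against 2.68 ± 0.78 FPKM (SD, n = 3). Dermal stem cells held more Ackr3 (57.1 ± 7.96 FPKM) and Ntn1 (50.2 ± 6.12 FPKM) than either group. Ackr3 kept its call in all fits with a library left out. Dpp4 kept it only without DS-labelled replicate 5 (adjusted p = 0.0541 to 0.171 in the others), and Ntn1 lost it without DS-labelled replicate 5, IFD-labelled replicate 1 or both that stood apart (0.0634 to 0.0731). The count of 3 was 1 without IFD-labelled replicate 1 or both that stood apart, and 2 in the other fits with a library left out. The list median was -0.15.

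A further receptor of guidance cues was among the firmest calls. Unc5b (chr10:60762594-60831581), a receptor for netrins and Flrt proteins, was at 2.27, 1.03 and 2.36 FPKM against 21.0, 25.7 and 22.3 FPKM and differed by -3.09 ± 0.30 (adjusted p = 0.000298), in every fit with a library left out. Of 33 axon guidance genes 3 were higher (Ntn1, Robo1 and Efna5) and 1 lower (Unc5b). Robo1, a Slit receptor, averaged 61.5 ± 4.07 against 21.0 ± 5.19 FPKM, and Efna5, an ephrin, 29.6 ± 6.33 against 10.8 ± 1.73 FPKM (SD, n = 3). Ntn1 alone of these 3 kept its call without DS-labelled replicate 4, Ntn1 and Efna5 kept theirs without DS-labelled replicate 1 or IFD-labelled replicate 2, and none of the 3 did without DS-labelled replicate 5, IFD-labelled replicate 1 or both that stood apart. Over the fits that lost them, the adjusted p was 0.0634 to 0.0731 for Ntn1, 0.0568 to 0.112 for Robo1 and 0.0532 to 0.0813 for Efna5.

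Proliferation genes leaned one way with few calls. Of 41 cell cycle genes 39 had a difference above 0 (37 under median-of-ratios scaling and 38 under quantile normalization), their median was 0.64, and 2 passed. Mki67, the usual proliferation marker, was at 102, 90.7 and 108 FPKM against 60.3, 52.3 and 72.7 FPKM, without overlap, but did not pass (adjusted p = 0.293). Mcm6, a subunit of the replicative helicase, averaged 79.6 ± 12.2 against 33.7 ± 2.29 FPKM (SD, n = 3). Ccnd3, a G1 cyclin, was at 1.82, 5.91 and 1.89 FPKM and listed at 0 in all IFD-labelled libraries. Its locus overlaps Bysl, and such exact zeros can be failed estimates. Mcm6 lost its call in each fit with a library left out (adjusted p = 0.0688 to 0.12), and Ccnd3 in those without DS-labelled replicate 5, IFD-labelled replicates 1 or 2, or both that stood apart (0.076 to 0.0888). Both groups stood far above dermal stem cells, in which the cell cycle list summed to 281 to 416 FPKM, against 1329 to 1855 FPKM in DS-labelled and 938 to 1233 FPKM in IFD-labelled libraries.

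Besides Fgf5, Fgf2 was the only other higher call among 23 FGF and EGF pathway genes, with 0 lower. Fgf2, basic fibroblast growth factor, was at 6.75, 8.51 and 5.45 FPKM against 0, 0.406 and 2.004 FPKM, and lost its call without DS-labelled replicate 4 or 5 or IFD-labelled replicate 1 or 2 (adjusted p = 0.0565 to 0.098). Of 23 Hox genes 2 were lower, Hoxd8 (4.45 ± 2.59 against 14.3 ± 3.37 FPKM) and Hoxd4 (0.980 ± 0.167 against 3.91 ± 1.47 FPKM; SD, n = 3). Hoxd8 lost its call without DS-labelled replicate 4 or 1, any IFD-labelled replicate but 6, or both that stood apart (0.0665 to 0.0893), and Hoxd4 in every such fit (0.0612 to 0.188). No member passed of 26 immediate early genes, which respond to tissue dissociation, 18 heat shock and unfolded protein response genes, 18 glycolysis and hypoxia genes, 16 Notch, 23 TGF-beta and activin or 13 IGF and PDGF pathway genes, 10 Schwann cell and nerve genes, 14 endothelial genes or 5 adipocyte genes. With a library left out, 1 immediate early gene was higher without DS-labelled replicate 4 and 1 Schwann cell gene lower without IFD-labelled replicate 6. The glycolysis genes Gapdh, Pgk1, Eno1 and Pgam1 could not be compared. They did not exceed 1.12 FPKM in any of the 6 libraries and were left out by the filter, and the reason for these low values was not tested.

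A pair of further genes was listed at 0 in all DS-labelled libraries and at 5 FPKM or more in all IFD-labelled ones, besides Pmel, and no gene showed the reverse. Ppap2a, a lipid phosphatase, was at 17.99, 19.8 and 7.33 FPKM in IFD-labelled libraries, 35.7 ± 5.78 FPKM in dermal stem cells and 42.3 ± 7.53 FPKM in dermal papilla (SD, n = 3). The entry 4931406C07Rik, which overlaps Taf1d, was at 15.4, 6.09 and 5.91 FPKM. The other 3 populations expressed both, so the zeros stand only in the DS-labelled libraries. As for Pmel, exact zeros can be failed estimates, so no absence of expression is read from them.

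The called genes were also set beside the other populations, by the population with the highest mean. Of the 131, 94 had their highest mean in DS-labelled libraries, 26 had it in dermal stem cells, and dermal papilla had it for 11. Of the 187 lower genes, 120 had their highest mean in IFD-labelled libraries, dermal papilla had it for 47, and 20 had it in dermal stem cells. Calling a gene higher in a group itself favours a maximum there. The matching share over all genes tested was not counted, so nothing is read from these counts. Some named genes were highest elsewhere. Tagln averaged 134 ± 111 FPKM in DS-labelled libraries and 577 ± 27.2 FPKM in dermal stem cells, and Bgn 174 ± 47.9 and 2063 ± 617 FPKM (SD, n = 3). Lgr5, at 23.2 ± 8.97 FPKM in DS-labelled libraries, was at 4.53 ± 3.17 FPKM among dermal stem cells and 2.1998 ± 0.280 FPKM in dermal papilla. These levels are a description, with no test.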

How the data were processed

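Gene levels were deposited by the authors as FPKM, 1 column for each of 12 oligo(dT)-selected SOLiD libraries. Per the submitters' processing notes, TopHat2 2.0.13, SAMtools, Cufflinks 2.2.1 and mm10 were used, with no parameters given. FPKM keeps no counts, so depth is unknown and counting error has no interval. Levels were turned into log2(FPKM + 1) from the deposited values, for genes that reached 1 FPKM in 3 or more of the 6 libraries compared. The 4 population means of all 12 libraries were fitted in limma 3.58.1 (R 4.3.3; empirical Bayes with a mean-variance trend, 8 residual degrees of freedom), with Benjamini-Hochberg adjustment over all 11274 genes, and the script was tested on simulated data. Named genes are the 15 largest called changes in each direction with no overlap, no value of 0 and a higher group averaging 5 FPKM or more, as well as up to 4 called members of each list (or 2 tested members where none is called), 12 genes that check the labels, and genes at 0 in 1 group only. The members and lists were chosen with earlier results of these data known. CATGTG, the fit with a replicate block and the fit without both libraries that stood apart were added after the data were seen. Positions are from RefSeq GRCm38.p6, and 45 of 123 positioned named genes overlap another annotated gene, including Tagln, Gli1, Alas2 and Timp3.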

Additional observations from a re-analysis of the deposited data

How the results depend on the processing

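The 2 groups share a single replicate number, and only if the library titled DSL1 is replicate 1. A fit with the replicate number as a block over all 12 libraries was added after seeing the data (replicate block, 4 residual degrees of freedom). In it 169 genes passed, 94 higher and 75 lower. Of these, 106 are among the 318, and 41 of the 86 named calls were lost. Slc39a10, Bgn, Tnfrsf19, Fam26e, Ackr3 and Lgr5 lost their calls only in this fit (adjusted p = 0.0504 to 0.103 in limma). They had kept them in all fits with a library left out. The numbers were not taken as pairs in the main fit. Over the 12 same-numbered pairs of libraries the correlation of deviations ran from -0.28 to 0.40 (median 0.10). Over the 42 other pairs it ran from -0.31 to 0.47 (median -0.03), and DS-labelled replicate 1 correlated best with IFD-labelled replicate 6. Dermal stem cells and dermal papilla of the same number correlated at 0.277, 0.267 and 0.397. The main fit treats all 12 libraries as independent, which these values do not settle. With a pseudocount of 0.1 or 5, 245 or 367 genes passed, and with a filter on all 12 libraries 289. With the 6 libraries alone 320 passed, but only 233 of these are among the 318. In that fit 6 of the 86 named calls were lost (Cidea, Gli2, Hoxd4, Il2rb, Tcf4 and Wnt7b). With median-of-ratios scaling 285 passed, with quantile normalization 391 and with no mean-variance trend 305. Without a filter, 93 genes were higher and 123 lower, and with a filter at 5 FPKM 120 were higher and 120 lower. Higher genes were 41.2% of calls, 52.3% with a pseudocount of 5 and 34.0% with median-of-ratios scaling. Leaving out 1 library gave 133 to 345 calls, 52 to 178 higher and 78 to 167 lower, and leaving out both libraries that stood apart gave 124, 56 and 68. The cause was not tested. None of the named genes that passed changed direction in any of these settings. Of the 86 named genes called, 41 lost the call without a filter and 17 to 43 when 1 library was left out. Depth is unknown, and 34 called genes are listed at 0 in at least 1 of the 6 libraries.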

Other observations

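The genes here lie outside the rule for named genes and the lists, and were chosen after their values were seen; triplets are in the order DS-labelled replicates 4, 5 and 1 and IFD-labelled replicates 1, 2 and 6. They stand for no gene group. Porcn, the enzyme that lipid-modifies Wnt ligands before secretion, was at 18.9, 17.3 and 10.5 FPKM against 4.32, 5.25 and 4.62 FPKM, a difference of 1.496 (adjusted p = 0.00736 in limma). Prickle2 and Prickle1, of the planar cell polarity pathway, differed by 2.06 and 1.61 (adjusted p = 0.00149 and 0.00248), with Prickle2 at 10.8, 18.1 and 12.2 FPKM against 2.14, 2.65 and 2.56 FPKM. Smoc2, a calcium-binding matrix protein, was at 50.9, 49.6 and 39.1 FPKM against 11.5, 13.7 and 8.45 FPKM, a difference of 1.98 (adjusted p = 0.000801). The groups did not overlap for any of these genes, and each passed in every fit with a library left out.

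A pair of Sox transcription factor genes differed in opposite directions. Sox13 was at 6.96, 10.7 and 5.42 FPKM against 1.23, 1.74 and 1.22 FPKM, a difference of 1.82 (adjusted p = 0.00489 in limma), while Sox21, a factor of the hair shaft cuticle, was at 6.97, 5.62 and 2.85 FPKM against 24.3, 38.1 and 15.9 FPKM, a difference of -2.12 (adjusted p = 0.00649). Slc38a2, an amino acid transporter, was at 182, 279 and 234 FPKM against 90.9, 72.6 and 100.045 FPKM, and Slc29a1, a nucleoside transporter, at 17.9, 24.4 and 20.0 FPKM against 5.004, 6.28 and 8.34 FPKM. On the lower side, Aldh3a1, an aldehyde dehydrogenase, was at 1.02, 1.57 and 0.976 FPKM against 13.1, 15.1 and 22.7 FPKM, a difference of -3.01 (adjusted p = 0.000333). These 5 genes also passed in every fit with a library left out.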
